A study of Mus musculus with 12 samples.

Results

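The mitochondrial genome of the mouse encodes the 2 RNAs of the mitochondrial ribosome, the messenger RNAs (mRNAs) for core subunits of the respiratory chain and ATP synthase, and the tRNAs needed to translate them. The members described here are the genes listed as mt-Rnr1 or mt-Rnr2, or with a name starting mt-Nd, mt-Co, mt-Cytb or mt-Atp. Of the 15223 genes listed, 10 met this rule: both rRNA genes, and 8 mRNA genes (mt-Nd1, mt-Nd2, mt-Nd3, mt-Nd4, mt-Nd5, mt-Nd6, mt-Co1 and mt-Cytb). GENCODE M21 annotates 15 such genes, 13 of them mRNAs; mt-Co2, mt-Co3, mt-Atp6, mt-Atp8 and mt-Nd4l were not analysed here. All 10 genes were tested, and no filter on low values was applied.

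The libraries were made from C57BL/6 c-KitCreERT2/mTeG mice aged 8 weeks. All mice of the series share this genotype, and tamoxifen (0.5 mg a day, intraperitoneal, for 14 days) switched on the Cre recombinase under the c-Kit locus, so that c-Kit(+) cells and whatever arose from them carried eGFP. The compared groups are c-Kit(+) cells 1 day before myocardial infarction (pre-MI, n = 3), 1 day after it (day 1, n = 2), 12 days after it with Sfrp2, a secreted Wnt-binding protein given 2 days after MI (day 12 Sfrp2, n = 3), and 12 days after it with vehicle (day 12 vehicle, n = 3). Cardiomyocytes of sham mice are 1 library without a replicate. The labels give 12 days for both late groups where the column names of the deposited tables give 14, and the labels are followed here. The labels attach the word vehicle to the day 1 libraries. They do not state whether each library is a different animal, so every p-value here reflects library-to-library spread, part of which could be technical.

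Both strands of mitochondrial DNA are transcribed as long RNAs from which tRNAs are cut out, which frees the rRNAs and mRNAs between them. The rRNAs lie next to the heavy-strand promoters and are made in excess over the mRNAs in most cells. Heart muscle is among the tissues with the most mitochondrial mRNA, since its work depends on oxidative phosphorylation. Because rRNA and mRNA come from the same genome and the same cells, their ratio within a library does not depend on how libraries were scaled.

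On GRCm38, mt-Rnr1 lies at chrM:70-1024 and mt-Rnr2 at chrM:1094-2675, both on the plus strand, and neither holds an intron. They carry most of the reads of these libraries, and their first 60 bases are shown to identify the transcripts counted.
mt-Rnr1: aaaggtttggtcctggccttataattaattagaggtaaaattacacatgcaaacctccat
mt-Rnr2: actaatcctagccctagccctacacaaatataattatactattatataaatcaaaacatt

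Per the series' design text, reads were kept only where they mapped to 1 place, so a copy of mitochondrial DNA in a nuclear chromosome can remove reads from a member. Every 50-base window of each member was looked up in the nuclear transcripts of GENCODE M21, on both strands. mt-Rnr1, mt-Nd1, mt-Nd6 and mt-Cytb shared no window, mt-Rnr2 shared 1.04%, mt-Nd5 7.61% and mt-Nd2 8.19%. mt-Co1 shared 51.1%, mt-Nd4 62.2% and mt-Nd3 98.0%. The 4 mRNA genes with the highest shares, mt-Co2 (100%), mt-Co3 (99.9%), mt-Atp6 (99.5%) and mt-Nd4l (98.8%), are among those not analysed here, while mt-Atp8 shared 0% of its windows with an annotated transcript. Nuclear sequence outside annotated transcripts was not searched, so a copy of mt-Atp8 there would not be seen.

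The copy of mt-Nd3, the annotated gene Gm28438 on chromosome 1, decides how mt-Nd3 can be read. Over 345 compared bases the 2 differ at 1 position, T3C counted from the 5′ end of mt-Nd3, which the capitals mark.
mt-Nd3 (chrM:9459-9518, plus strand): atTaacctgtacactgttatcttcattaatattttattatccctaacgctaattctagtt
Gm28438 (chr1:24613060-24613119, minus strand): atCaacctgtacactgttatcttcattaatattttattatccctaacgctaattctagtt
In mt-Rnr2 the shared windows form 1 run of 65 bases, in capitals, that also stands in Gm20594 on chromosome 6.
mt-Rnr2 (chrM:2092-2176, plus strand): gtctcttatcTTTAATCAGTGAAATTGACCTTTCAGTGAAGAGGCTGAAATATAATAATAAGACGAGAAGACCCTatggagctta
mt-Nd5 and mt-Nd6 overlap by 14 bases on opposite strands, in capitals below, and the strand setting of the counting is not given in the sources used here, so reads of mt-Nd6 and of the RNA opposite it cannot be told apart.
mt-Nd5 (chrM:13526-13565, plus strand): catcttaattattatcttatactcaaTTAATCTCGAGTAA
mt-Nd6 (chrM:13552-13591, minus strand): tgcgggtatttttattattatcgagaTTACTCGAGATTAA

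Mitochondrial reads dominated nearly every c-Kit(+) library. The listed genes held between 190259 reads (cardiomyocytes) and 3570993 reads (pre-MI replicate 3). The 2 rRNA genes took 82.6%, 86.7% and 84.6% of them in the pre-MI libraries, 72.6% and 75.1% at day 1, 79.1%, 52.9% and 59.5% at day 12 with Sfrp2, and 56.6%, 75.8% and 2.01% at day 12 with vehicle. Vehicle replicate 3 stood apart from the other 10 c-Kit(+) libraries, with 200641 reads in all and 4031 on the rRNA genes (95% Wilson interval of the share 1.95% to 2.07%). Intervals cover counting error only, since the reads carry no molecular identifiers. Differences that include vehicle replicate 3 are given with and without it where they were computed both ways.

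The cardiomyocyte markers of the library labelled as cardiomyocytes went against that label. Of 12 cardiomyocyte markers, Pln and Mb were at 0 there, and all 12 together took 0.0672% of its reads outside the mitochondrial genome, against 1.51% to 2.64% in the pre-MI c-Kit(+) libraries. Kit had no read in it, which does not go against the label. Its rRNA genes held 1.08% of reads (95% Wilson interval 1.03% to 1.12%) and 12 predicted satellite-like genes took 36.3% of its reads outside the mitochondrial genome. That share was not particular to it: the same genes took 31.1% to 33.6% at day 1 and 30.7% to 48.0% with Sfrp2. It is called the library labelled cardiomyocytes below, and its low mitochondrial values are a description of that library.

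mt-Rnr2, the RNA of the large subunit of the mitochondrial ribosome, had the highest value of all listed genes in 10 of the 11 c-Kit(+) libraries. Its normalized values (reads divided by the library's size factor, given in units of 1000 and marked k) were 1656, 3413 and 2172 k in the pre-MI libraries, 784 and 1003 at day 1, 911, 253 and 290.3 at day 12 with Sfrp2, and 312, 700.3 and 3.46 at day 12 with vehicle. All pre-MI libraries lay above all later ones. In bulk samples, fewer cells of a type and less RNA per cell cannot be told apart. mt-Rnr1, the RNA of the small subunit, had values of 1058, 1966 and 1259.7 k before MI, 436 and 543 at day 1, 583, 132 and 169.7 at day 12 with Sfrp2, and 162, 384 and 4.08 at day 12 with vehicle. The order of the groups was the same for both rRNAs, and in both the Sfrp2 and the vehicle libraries overlapped.

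Among the mRNAs, mt-Co1, the catalytic core of complex IV, and mt-Cytb, the cytochrome b of complex III, had the most reads. mt-Co1 stood at 97.5, 174 and 123 k before MI, at 60.05 and 68.0 at day 1, at 49.7, 12.1 and 15.0 at day 12 with Sfrp2, and at 18.8, 39.0 and 0.279 at day 12 with vehicle. mt-Cytb stood at 93.6, 155 and 117 k before MI, at 51.1 and 68.8 at day 1, at 44.7, 12.2 and 14.7 with Sfrp2, and at 19.1, 32.0 and 0.776 with vehicle. As for the rRNAs, no later library reached the lowest pre-MI library.

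The complex I subunits mt-Nd1, mt-Nd2, mt-Nd4, mt-Nd5 and mt-Nd6 followed. mt-Nd1, which forms part of the ubiquinone site, averaged 31.5 ± 4.26 k at day 1 (SD, n = 2) and 47.9 ± 17.6 k before MI (SD, n = 3). mt-Nd5, a proton-pumping subunit, averaged 33.4 ± 9.46 k at day 1 and 74.9 ± 25.8 k before MI. mt-Nd6, encoded on the other strand, averaged 6.00 ± 4.38 k at day 12 with Sfrp2 and 44.0 ± 15.6 k before MI (SD, n = 3 each). mt-Nd2 and mt-Nd4 averaged 6.73 ± 3.94 and 7.08 ± 4.66 k with Sfrp2, against 29.8 ± 9.05 and 36.2 ± 10.3 k before MI. In each of these 5 genes, too, no library after MI reached the lowest pre-MI library.

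mt-Nd3, a small complex I subunit, went the other way at a very low level. It had 0, 1 and 0 reads in the pre-MI libraries, 42 and 41 at day 1, 27, 21 and 25 with Sfrp2, and 12, 41 and 0 with vehicle. With 1 read in all before MI, its fitted fold change depends on the pseudocount. The ratio to pre-MI, from summed reads and size factors, was 98.1 at day 1 (exact 95% counting interval 17.1 to 3920), 33.4 with Sfrp2 (5.80 to 1336) and 38.2 with vehicle (6.57 to 1537). With 293 of its 299 windows shared with Gm28438, its reads rest on a small part of the gene. Gm28438 was not analysed here, so whether the change is in mitochondrial RNA was not tested.

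**Figure D1:**
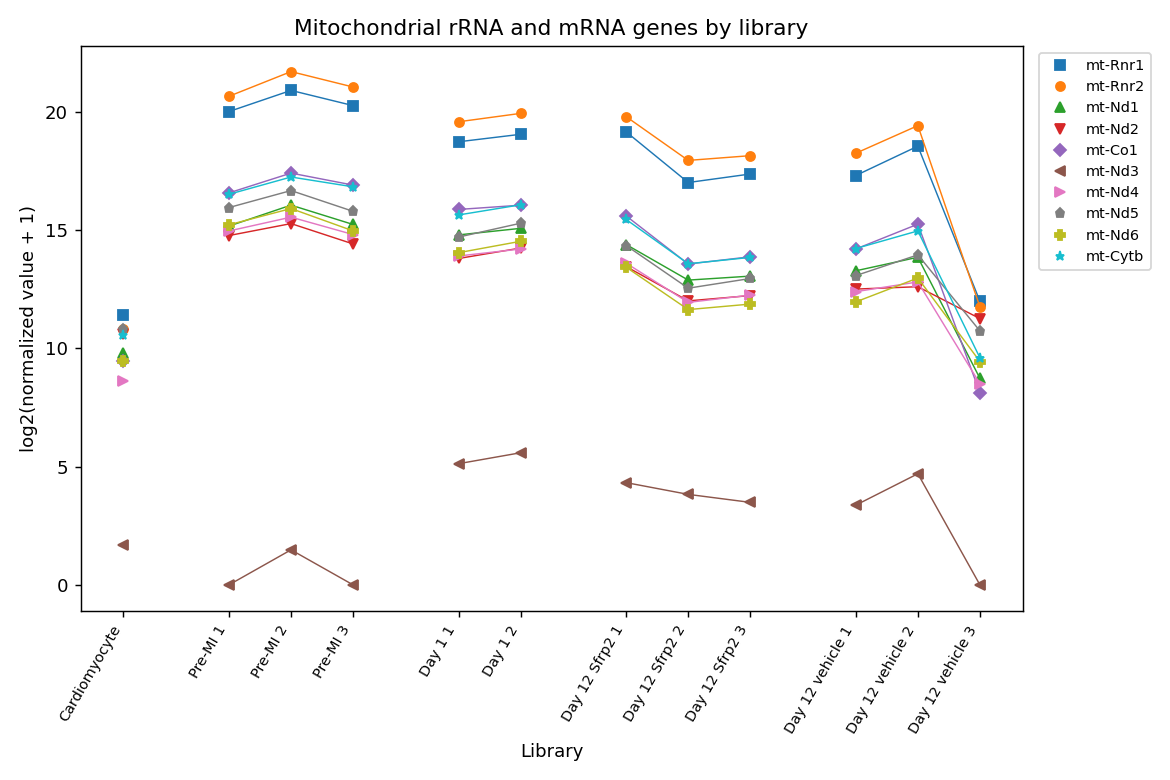
Normalized value of each mitochondrial rRNA and mRNA gene, as log2(value + 1), in the 12 libraries. Lines join the libraries of 1 group and carry no order. The 3 pre-MI libraries lie highest for 9 of the 10 genes, vehicle replicate 3 and the library labelled cardiomyocytes lie lowest for the same 9, and mt-Nd3 is near 0 before MI.

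Between day 1 and pre-MI, 9 of the 10 members, all but mt-Nd3, had lower values at day 1 with no overlap between libraries, as did 10.4% of all listed genes. mt-Nd3 was higher with no overlap, as were 39.6% of genes. A limma fit of log2(value + 1), in which the prior variance follows a trend with the level, was adjusted by Benjamini-Hochberg over 15223 genes. It called 1 of the 10 members at 0.05, against 23.9% of all genes (21.3% higher, 2.65% lower). On simulated counts this comparison, with 2 libraries on 1 side, also called unchanged genes, well beyond its nominal rate. The gene called was mt-Nd3, which rose by 4.86 ± 0.62 (log2 difference ± SE; adjusted p = 0.00694, limma). Neither rRNA passed. mt-Rnr1 differed by -1.50 ± 0.93 (adjusted p = 0.297, limma) and mt-Rnr2 by -1.38 ± 1.16 (adjusted p = 0.436, limma). The mRNAs other than mt-Nd3 differed by between -1.14 (mt-Nd5) and -0.55 (mt-Nd1). Over all genes the median log2 difference was 0.70, which includes the many genes at or near 0 before MI. Over the 3740 genes averaging 10 or more it was -0.31, and the 9 members other than mt-Nd3 lay below both medians. A fit of just those 3740 genes called 11.6% of them lower and 4.25% higher, and 1 member, higher. Centred on each library's median, all 10 members were called, 9 of them lower, among 14.5% of all genes called lower and 3.65% higher.

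The trended fit gave the rRNA genes standard errors well above those of a fit with 1 prior variance. That second fit, added after the data were seen, put the standard error of mt-Rnr1 at 0.35, against 0.93, and called 2 members at day 1, mt-Nd3 higher and mt-Rnr1 lower (adjusted p = 0.0481, limma). It called 22.0% of all genes, 19.9% higher and 2.13% lower. Leaving out each library in turn, the day 1 difference ranged from -1.69 to -1.25 for mt-Rnr1 and from -1.62 to -1.10 for mt-Rnr2. Where a day 1 library is left out, the single day 1 library is assumed to vary like the pre-MI ones, so calls are not given.

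At day 12 with Sfrp2, 8 of the 10 members were called against pre-MI, among 57.6% of all genes. mt-Nd3 rose by 3.39 ± 0.51 (adjusted p = 0.000817, limma), among 48.8% of genes called higher. The 7 other mRNAs fell, among 8.82% of genes called lower. In a fit of just the genes averaging 10 or more, 30.8% of genes were called lower and 11.8% higher, and 7 members lower. mt-Nd6 fell by 3.05 ± 0.60 (adjusted p = 0.00283, limma), mt-Nd5 by 2.86 ± 0.64 and mt-Nd1 fell by 2.04 ± 0.60 (adjusted p = 0.0178, limma). mt-Co1 and mt-Cytb fell by 2.62 ± 0.74 and 2.57 ± 0.70. The rRNAs did not pass in this fit: mt-Rnr1 differed by -2.55 ± 1.25 (adjusted p = 0.111, limma) and mt-Rnr2 by -2.51 ± 1.43 (adjusted p = 0.162, limma).

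With 1 prior variance both rRNAs were called lower with Sfrp2, at adjusted p = 0.00678 for mt-Rnr1 and 0.00561 for mt-Rnr2 (limma), with the same differences and standard errors of 0.58 and 0.55. In values, 9 members were lower with no overlap, as were 11.5% of all genes, and mt-Nd3 was higher with no overlap, as were 51.4%. The count of members called was 2 without Sfrp2 replicate 3, 4 without pre-MI replicate 2 and 5 without pre-MI replicate 3. Those fits called 43.5%, 56.0% and 56.7% of all genes. It was 1 in a fit of all 11 c-Kit(+) libraries, which shares the spread of vehicle replicate 3 and called 43.6% of all genes, and 5 with edgeR's quasi-likelihood test on the recovered reads, which called 55.7%. It was 10 with DESeq2 on those reads, with 1 prior variance, when centred on each library's median and without Sfrp2 replicate 1. These called 42.7%, 57.1%, 47.3% and 54.0% of all genes.

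At day 12 with vehicle, limma called 0 of the 10 members against pre-MI, and 0% of all genes, with 0 members and 5150 genes at an unadjusted p under 0.05. The standard error of mt-Rnr2 was 29.9 in this fit and 1.68 with 1 prior variance. The fit with 1 prior variance called no member either, where 2.7% of all genes were called, 2.63% higher and 0.0657% lower. On the recovered reads edgeR called 1 member, mt-Nd3 higher, among 12.3% of all genes called higher, and DESeq2 called 4 lower, among 0.762% of all genes called lower. The differences ran from -4.66 (mt-Rnr2) to -2.70 (mt-Nd2) for the 9 members other than mt-Nd3, and all 9 were lower with no overlap, as were 7.08% of all genes. mt-Nd3 overlapped, where 26.3% of genes were higher with no overlap. Without vehicle replicate 3 the differences shrank to between -2.90 (mt-Nd6) and -1.92 (mt-Nd1). Without vehicle replicate 2, 5 members were called lower by limma: mt-Nd2, mt-Nd4, mt-Nd5, mt-Nd6 and mt-Cytb. That fit called 42.2% of all genes, with 6.5% of all genes called lower.

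No member passed a test between the Sfrp2 and vehicle libraries of day 12. limma, edgeR and DESeq2 each called 0 of 10, and 0% of all genes, with 0 members and 219 genes at an unadjusted p under 0.05 in limma. The log2 difference of mt-Rnr2 was 2.16 ± 10.9 (SE), and -0.20 without vehicle replicate 3. The count of members without overlap was 0, beside 4.93% of genes higher and 2.33% lower. The 3 comparisons with pre-MI share the same pre-MI libraries.

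**Figure D2:**
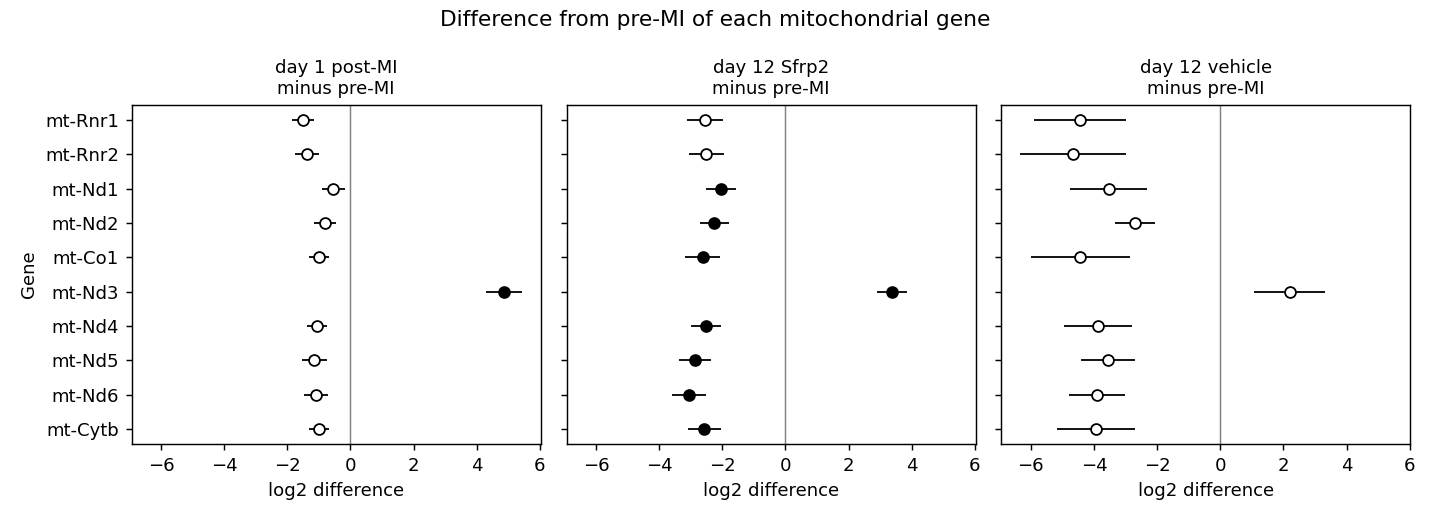
Log2 difference from pre-MI of the 10 genes at day 1, at day 12 with Sfrp2 and at day 12 with vehicle. Bars are standard errors of the limma fit with 1 prior variance, and filled points were called at 0.05 in the fit with a trended variance. 9 genes lie left of 0 in all 3 comparisons, and mt-Nd3 lies right of it.

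In the authors' deposited table, 1 member passed an adjusted p of 0.05 at day 1, among 2.05% of all genes. With Sfrp2 8 passed, 1 higher and 7 lower, among 33.5%, and with vehicle 10, among 25.7%, 9 of these lower. The 8 with Sfrp2 were not the same 8 as in limma: mt-Rnr1 passed as lower and mt-Nd1 did not pass. mt-Rnr2 passed in neither with Sfrp2, and both rRNAs passed as lower with vehicle in the deposited table. Between Sfrp2 and vehicle the authors' deposited table has 0 of 10 members and 0% of all genes under that threshold.

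rRNA and mRNA kept a similar proportion in most c-Kit(+) libraries. There were 6.96, 8.26 and 8.23 rRNA reads per mitochondrial mRNA read in the pre-MI libraries, 5.73 and 5.66 at day 1, 8.71, 7.83 and 7.72 at day 12 with Sfrp2, and 6.61, 8.80 and 1.13 at day 12 with vehicle. The library labelled cardiomyocytes had 0.600. The 2 day 1 libraries lay below all pre-MI and Sfrp2 libraries, and vehicle replicate 3 and the library labelled cardiomyocytes lay far below the rest. Per kilobase of transcript, rRNA exceeded mRNA 19.5-fold to 30.4-fold in the other 10 c-Kit(+) libraries, 3.88-fold in vehicle replicate 3 and 2.07-fold in the library labelled cardiomyocytes.

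As a log2 ratio, rRNA to mRNA averaged 2.51 ± 0.01 at day 1 (SD, n = 2) and 2.96 ± 0.14 before MI (SD, n = 3), a difference of -0.45 with no overlap. With Sfrp2 it averaged 3.01 ± 0.10, against 2.96 ± 0.14 before MI (SD, n = 3 each), a difference of 0.05 with overlap. With vehicle it averaged 2.01 ± 1.61, and its difference from pre-MI was -0.95 with vehicle replicate 3 and -0.03 without it. Sfrp2 minus vehicle was 1.00 with that library and 0.08 without it. These ratios weight each mRNA by its reads; with the log2 values averaged, so that mt-Nd3 counted as much as any other mRNA, the difference from pre-MI was -1.22 at day 1 and -0.71 with Sfrp2. An exact two-sided permutation test could not go below p = 0.2 for 2 against 3 libraries, or below 0.1 for 3 against 3, so none is given.

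Tested against the summed mitochondrial mRNA of the same library, neither rRNA gene passed in any of the 4 comparisons. At day 1 mt-Rnr1 differed by -0.53 ± 0.36 (adjusted p = 0.199, limma) and mt-Rnr2 by -0.41 ± 0.37 (adjusted p = 0.336, limma), where 55.2% of all genes were called (54.9% higher, 0.296% lower). Both became called as lower when the pseudocount was 5 (adjusted p = 0.000370 and 0.00167, limma), where 10331 of 15223 genes were called, 27 of them lower. Both were also called as lower when the fit held just the genes averaging 10 or more (adjusted p = 0.00374 and 0.0175, limma). There 477 of 3740 genes were called, 27 of them lower. mt-Rnr1 alone was called without pre-MI replicate 1, where 8110 genes were called, 28 of them lower. With Sfrp2, mt-Rnr1 differed by 0.02 ± 0.18 and mt-Rnr2 by 0.07 ± 0.18, where 91.9% of all genes were called (0.0328% lower). With vehicle the differences were -0.84 ± 1.38 and -1.06 ± 1.45, where 81.6% were called, and between Sfrp2 and vehicle 0.87 ± 0.92 and 1.13 ± 0.91, where 0% were. Without vehicle replicate 3, vehicle differed from pre-MI by -0.13 for mt-Rnr1 and 0.028 for mt-Rnr2, and Sfrp2 from vehicle by 0.16 and 0.038. In these 2 comparisons no rRNA gene had an unadjusted p under 0.05.

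The 2 rRNAs also kept a narrow ratio to each other. mt-Rnr1 reads per mt-Rnr2 read were 0.639, 0.576 and 0.580 before MI, 0.556 and 0.542 at day 1, 0.640, 0.523 and 0.584 with Sfrp2, and 0.521 and 0.548 in vehicle replicates 1 and 2. Vehicle replicate 3 had 1.18 and the library labelled cardiomyocytes 1.53, the only 2 libraries with more mt-Rnr1 than mt-Rnr2 reads. Per kilobase, the pre-MI level of mt-Rnr1 was 1495 ± 499 k and that of mt-Rnr2 1526 ± 571 k (SD, n = 3). Within the libraries, mt-Rnr1 was the higher in 1 of 3.

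**Figure D3:**
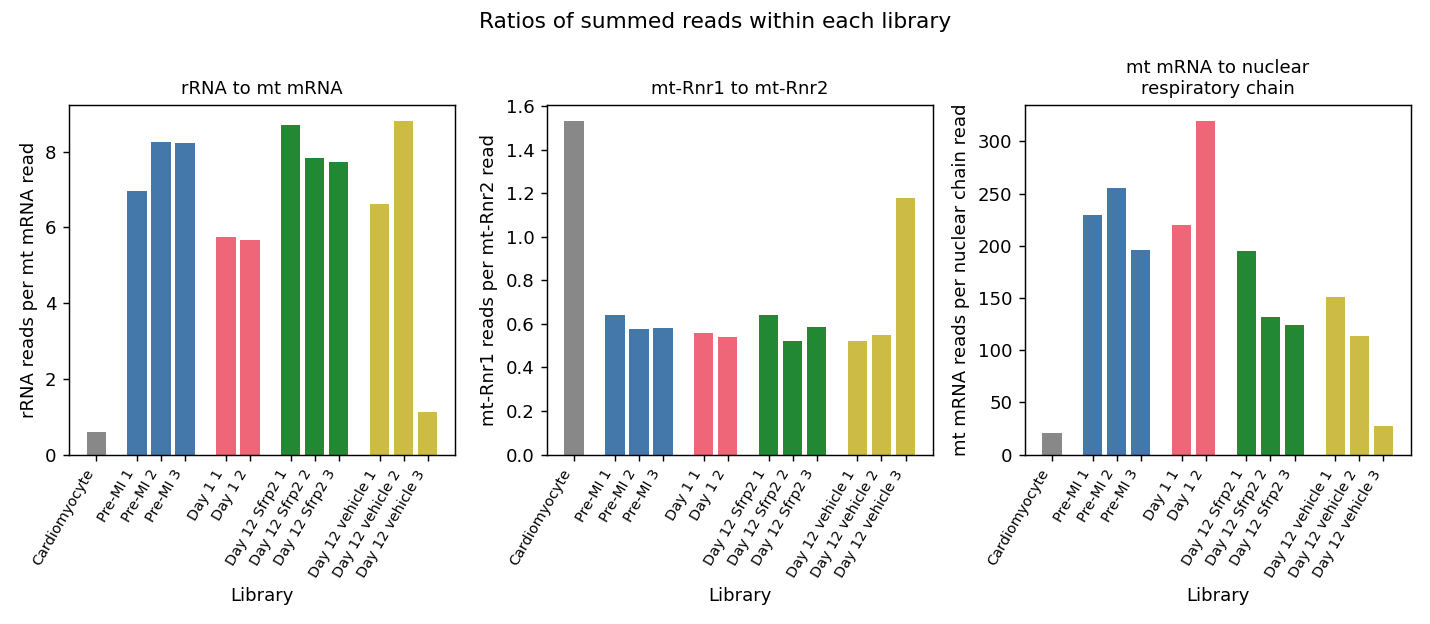
Reads of the 2 rRNA genes per mitochondrial mRNA read (left), mt-Rnr1 reads per mt-Rnr2 read (middle) and mitochondrial mRNA reads per read of nuclear-encoded respiratory chain genes (right), 1 bar per library. The library labelled cardiomyocytes and vehicle replicate 3 have the lowest left and right bars (0.600 and 1.13 on the left) and the highest middle bars.

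Per kilobase, the pre-MI order of the mRNAs was mt-Cytb (106.5 ± 27.3 k), mt-Co1 (85.1 ± 25.3), mt-Nd6 (84.8 ± 30.1), mt-Nd1 (50.04 ± 18.3), mt-Nd5 (41.1 ± 14.1), mt-Nd2 (28.7 ± 8.72), mt-Nd4 (26.3 ± 7.45) and mt-Nd3 (0.00172 ± 0.00297; SD, n = 3). Apart from mt-Nd3, the ranges of neighbours overlapped between libraries. Within libraries the order held in all 3 for every pair of neighbours except mt-Co1 and mt-Nd6, where mt-Co1 was higher in 1 of 3. mt-Co1 and mt-Nd4, with 51.1% and 62.2% of their windows shared with nuclear copies, may be undercounted.

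Among mitochondrial mRNA reads, the share of mt-Nd1 was higher at day 1 and with Sfrp2 than before MI. It was 13.4% and 12.6% at day 1, and 9.46%, 10.5% and 9.27% before MI. With Sfrp2 it was 12.5%, 15.4% and 14.3%. Neither group overlapped pre-MI. With vehicle it was 13.9%, 12.0% and 6.34%, and vehicle replicate 3 lay below all pre-MI libraries. mt-Nd1 is the mRNA next to mt-Rnr2 on the genome, and its first 60 bases are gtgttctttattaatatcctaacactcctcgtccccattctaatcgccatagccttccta (chrM:2751-2810, plus strand).

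With Sfrp2 the shares of mt-Nd5 and mt-Nd6 were lower. mt-Nd6 made up 6.44%, 6.49% and 6.29% of mitochondrial mRNA reads with Sfrp2, and 9.82%, 9.47% and 7.68% before MI, with no overlap. mt-Nd5 made up 12.5% ± 0.67 with Sfrp2 and 15.3% ± 1.47 before MI (SD, n = 3 each), also with no overlap. mt-Co1 stayed at 26.3% ± 2.35 with Sfrp2 and 27.1% ± 2.19 before MI, and mt-Cytb at 25.2% ± 0.75 with Sfrp2 and 25.3% ± 2.30 before MI, within their spread. With vehicle, replicates 1 and 2 also lay below every pre-MI library, and replicate 3 above them: mt-Nd5 made up 12.0%, 12.9% and 25.5%, and mt-Nd6 5.57%, 6.53% and 10.4%. The shares get no p, since they sum to a fixed total.

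Vehicle replicate 3 and the library labelled cardiomyocytes had a makeup of their own. mt-Nd2, a core complex I subunit, took 36.6% of mitochondrial mRNA reads in vehicle replicate 3 and 20.5% in the library labelled cardiomyocytes, against 5.06% to 8.38% in the other libraries. mt-Co1 took 4.16% and 9.25% there, against 24.7% to 31.7% in the others. These shares rest on 3580 and 3416 mitochondrial mRNA reads. The first 60 bases of mt-Nd2 are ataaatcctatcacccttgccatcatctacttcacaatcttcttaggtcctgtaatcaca (chrM:3914-3973, plus strand).

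**Figure D4:**
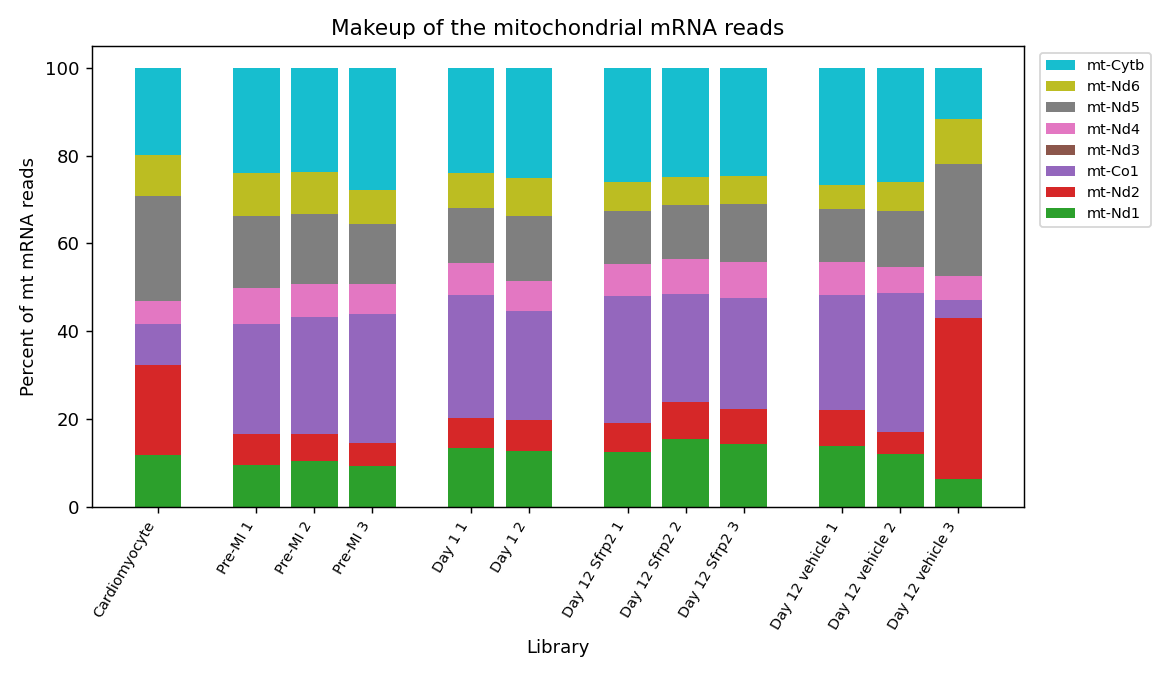
Share of each of the 8 mRNA genes in the mitochondrial mRNA reads of each library, in percent. mt-Co1 and mt-Cytb are the 2 largest shares in 10 c-Kit(+) libraries, and mt-Nd2 and mt-Nd5 are the 2 largest shares in vehicle replicate 3 (36.6% and 25.5%) and in the library labelled cardiomyocytes (20.5% and 24.0%).

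The library labelled cardiomyocytes had the lowest or second lowest value of every member but mt-Nd3. mt-Rnr2 was at 1.79 k, against 1656 to 3413 k in the pre-MI libraries, and mt-Rnr1 at 2.75 k, against 1058 to 1966 k. mt-Cytb was at 1.51 k, against 93.6 to 155 k before MI, and mt-Nd2, the member nearest to pre-MI, at 1.55 k, against 21.9 to 39.7 k. With 1 library there is no test, and the values stand beside the marker levels given above, whose part in them was not tested.

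The complexes that the mt-encoded mRNAs serve are completed by nuclear-encoded subunits, and these were lower too. Of 69 nuclear respiratory chain and ATP synthase genes, 13 fell and 0 rose at day 1, 51 fell and 0 rose with Sfrp2, and 0 were called with vehicle, where edgeR called 2 lower. Of all genes, 2.65% fell at day 1 and 8.82% with Sfrp2, and edgeR called 0.236% lower with vehicle. Among genes averaging 10 or more, 11.6% fell at day 1 and 30.8% with Sfrp2. Their median log2 difference was -0.94 at day 1, -1.62 with Sfrp2 and -1.87 with vehicle, beside medians of 0.70, 1.27 and 1.00 over all genes. Without vehicle replicate 3 the vehicle medians were -1.29 for these genes and 0.87 over all genes. Over genes averaging 10 or more, the medians were -0.31 at day 1, -0.49 with Sfrp2 and -0.27 with vehicle. Atp5a1, the alpha subunit of ATP synthase, had a value of 79.0 ± 4.61 at day 1 and 271 ± 57.0 before MI (adjusted p = 0.00650, limma). Sdha, the flavoprotein of complex II, which has no mitochondrially encoded subunit, fell to 13.5 ± 3.15 with Sfrp2, against 49.8 ± 4.999 before MI (adjusted p = 0.000921, limma).

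Mitochondrial mRNA reads per read of these nuclear genes numbered 229, 255 and 196 before MI, 220.4 and 319 at day 1, 195, 132 and 124 with Sfrp2, and 151, 114 and 26.9 with vehicle. On the log2 scale the mean was 7.20 ± 0.35 with Sfrp2 and 7.82 ± 0.19 before MI (SD, n = 3 each), a difference of -0.62 with no overlap. The gap was narrow, since the highest Sfrp2 library had 194.7 and the lowest pre-MI library 195.6. With log2 values averaged the difference was smaller, as given in the closing section. With vehicle the difference from pre-MI was -1.54, also with no overlap, and -0.78 without vehicle replicate 3. At day 1 the difference was 0.24, with overlap. An exact permutation test has the same lower limits here.

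Genes that make, process or use mitochondrial RNA were called by limma with Sfrp2 in shares near those of all genes or under them, which were 48.8% higher and 8.82% lower. With edgeR the shares of all genes were 42.0% higher and 13.7% lower. Of 10 genes for mitochondrial transcription and DNA maintenance, 0 were called at day 1 by limma and by edgeR, and 5 rose with Sfrp2, where edgeR called 1. Polrmt, the mitochondrial RNA polymerase, had a value of 5.60 ± 0.56 with Sfrp2 and 0.631 ± 1.09 before MI (adjusted p = 0.00480, limma). Of 24 genes for mitochondrial RNA processing, modification and decay, 10 rose and 2 fell with Sfrp2, and 6 and 5 in edgeR. The share of the 24 called lower by edgeR lay above that of all genes. Elac2, which cuts the 3′ ends of tRNAs from the precursor, had a value of 6.73 ± 0.34 with Sfrp2 and 0.694 ± 0.61 before MI (adjusted p = 0.00200, limma), and Fastkd2, an RNA-binding protein needed for mt-Rnr2 and the large subunit, had 8.49 ± 1.38 with Sfrp2 and 0.631 ± 1.09 before MI.

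Of 43 mitochondrial ribosomal protein genes, whose products assemble on the 2 rRNAs, 6 rose and 4 fell with Sfrp2, and 0 were called at day 1, where 21.3% of all genes rose and 2.65% fell. Their median log2 difference was 0.32 with Sfrp2 and -0.17 at day 1, beside 1.27 and 0.70 over all genes. Over genes averaging 10 or more, the medians were -0.49 and -0.31. Mrps7, a small-subunit protein, had a value of 4.09 ± 0.89 with Sfrp2 and 11.1 ± 1.08 before MI (adjusted p = 0.0109, limma), and Mrpl13, a large-subunit protein, had 11.6 ± 4.76 with Sfrp2 and 2.30 ± 0.52 before MI (adjusted p = 0.00406, limma). Of 9 translation factors 2 rose with Sfrp2. Of 8 regulators of mitochondrial biogenesis, Nrf1 rose with Sfrp2, to 21.7 ± 2.96 against 4.69 ± 3.27 before MI. Gabpa, another of the 8, fell at day 1, to 8.45 ± 0.59 against 18.6 ± 1.98 before MI. At day 1 edgeR called 0 of the 8 lower and 1 higher, beside 4.35% and 13.0% of all genes. All these genes sit at low values, where the 97858 to 189984 reads outside the mitochondrial genome in each pre-MI library left 33.9% to 42.1% of all genes at 0.

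Of 12 mitochondrial tRNA genes, cut from the same precursors, 1 rose at day 1 (mt-Tp), beside 21.3% of all genes, and 3 rose and 5 fell with Sfrp2, beside 48.8% and 8.82%. mt-Tl1, which lies between mt-Rnr2 and mt-Nd1, had a value of 42.3 ± 37.0 with Sfrp2 and 201 ± 72.2 before MI (adjusted p = 0.00566, limma), a log2 difference of -2.51.

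Over the 11 c-Kit(+) libraries the members moved together. Pearson's r of log2(value + 1) between members other than mt-Nd3 ran from 0.838 (mt-Rnr2 with mt-Nd2) to 0.999 (mt-Nd5 with mt-Nd6) over 36 pairs. Of 4428 genes outside the mitochondrial genome with a mean of at least 10, those most like mt-Rnr2 were Atp5g3 (r = 0.992), Atp5e (0.990), Zmynd11 (0.989), Brk1 (0.986) and Ube2b (0.984). Those most like mt-Co1 were Brk1 (0.992), Atp5g3 (0.990), Atp5e (0.988), Zmynd11 (0.985) and Max (0.982). These are descriptions over 11 libraries that share groups, depth and vehicle replicate 3.

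Listed nuclear copies of mitochondrial genes had few reads. Gm13340, a copy of mt-Co1 on chromosome 2, had values of 102, 170.3 and 139.7 before MI, 49.2 and 82.6 at day 1, and 46.5, 14.4 and 18.0 with Sfrp2, on the same scale without the factor of 1000. Gm20594, which holds the 65-base run of mt-Rnr2, had between 8 and 14 reads in the pre-MI libraries and between 3 and 13 with Sfrp2.

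Cardiomyocyte and endothelial markers fell with the members, and macrophage and monocyte markers rose. Of all genes, 21.3% rose at day 1 and 48.8% with Sfrp2, and 2.65% and 8.82% fell. Among genes averaging 10 or more, 4.25% rose at day 1 and 11.8% with Sfrp2, and 11.6% and 30.8% fell. Cardiomyocyte markers took 0.299% and 0.385% of reads outside the mitochondrial genome at day 1, 0.136% to 0.284% with Sfrp2 and 0.0850% to 0.386% with vehicle, against 1.51% to 2.64% before MI. Of the 12, 10 fell at day 1 and 11 with Sfrp2. Endothelial markers took 0.495% and 0.695% at day 1 and 0.125% to 0.421% with Sfrp2, against 1.90% to 2.16% before MI. Of the 10, 8 fell at day 1, and 9 fell and 1 rose with Sfrp2. Macrophage and monocyte markers took 0.0995% and 0.138% at day 1 and 0.050% to 0.0790% with Sfrp2, against 0.00607% to 0.0143% before MI, where C1qa and Fcgr1 were at 0, and 7 of 10 rose at day 1 and 9 with Sfrp2. Satellite-like genes took 31.1% and 33.6% at day 1 and 30.7% to 48.0% with Sfrp2, against 0.850% to 4.68% before MI. With vehicle, endothelial markers took 0.0524% to 0.689%, macrophage and monocyte markers 0.0332% to 0.535% and satellite-like genes 7.36% to 46.0%. Of 7 fibroblast markers 4 rose with Sfrp2, of 5 erythroid markers 5 fell, and of 2 mast cell markers 1 rose. None of these 3 lists had a call at day 1. Of 5 smooth muscle and pericyte markers, 1 fell at day 1, and 1 rose and 2 fell with Sfrp2. The part of cell makeup and of these satellite-like reads in the mitochondrial values was not tested.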

How the data were processed

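RNA of 12 libraries was amplified as cDNA with the Ovation Pico WTA System V2 kit, per the labels' protocols. Per the submitters' processing notes and the design text, the authors trimmed reads with Trim Galore and cutadapt, kept those of at least 20 nt, aligned them with STAR to GRCm38, kept reads mapping to 1 place, counted them with HTSeq, dropped genes under 10 reads in all libraries and normalized with DESeq2. No source used here gives the versions or the strand setting. The deposited values are a signal, gene counts divided by a size factor. The authors' deposited log2 fold changes, test scores and p-values were used only where named. Dividing by each library's step gave whole reads for 100% of values (tolerance 0.001), which gave depths of 190259 to 3570993 reads over the listed genes.

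The main test was limma 3.58.1 (R 4.3.3) on log2(value + 1), its prior variance following a trend with the level, run on the libraries of the 2 groups in each comparison. Adjustment was by Benjamini-Hochberg over all 15223 genes, and calls were made at 0.05. Such differences understate the change of low genes. For rRNA relative to mRNA, log2 of the summed mt mRNA value of the library was subtracted first. edgeR 4.0.16 and DESeq2 1.42.0 on recovered reads, other pseudocounts (0.5 and 5), a mean of at least 10, other scalings, and leaving out each library were alternatives, and a fit with 1 prior variance was added after the data were seen. The members, lists and tests were chosen with earlier results of these data known. Named genes were all members, up to 4 genes with the smallest p of each other list per comparison, and the 5 genes most correlated with mt-Rnr2 and with mt-Co1; fewer are printed here. Positions and sequences come from GENCODE M21 (GRCm38). On simulated counts the day 12 Sfrp2 comparison recovered most changed genes, the vehicle comparison few, and the day 1 comparison called unchanged genes beyond its nominal rate. Libraries of different groups with the same number in the labels showed no clear positive correlation, and the main test did not treat them as pairs.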

Additional observations from a re-analysis of the deposited data

How the results depend on the processing

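Of 186 alternative values of the comparisons, 159 kept a count close to the main count, or a difference within 1 pooled SD of the main difference. Counts of 0 that stayed at 0 are among them. For rRNA to mRNA with vehicle the pooled SD was 1.14, so a change from -0.95 to -0.03 without vehicle replicate 3 lay within it. The 159 therefore do not show that each difference held. Members called at day 1 numbered 1 as reported, 2 with 1 prior variance, 3 with DESeq2 and 10 when centred on the median (among 2205 of 15223 genes called lower). DESeq2 called 5.73% of all genes, 3.86% higher and 1.88% lower, and of the 3 members 1 was higher and 2 lower. Leaving out each pre-MI library, 1 member was called, among 13.1% to 15.0% of all genes. With Sfrp2 the members called numbered 8, against 1 in the fit of all 11 c-Kit(+) libraries and 5 with edgeR. They numbered 10 with DESeq2, with 1 prior variance and when centred on the median, and 2 to 10 leaving out each library. The share of all genes called was 57.6% in the main fit, and 43.5% to 56.7% leaving out each library. With vehicle they numbered 0, against 1 with edgeR, 4 with DESeq2, and 0 to 5 leaving out each library, where the genes called numbered 1907, 861 and 0 to 6421. With the replicate number as a block, 0 members were called at day 1, where 10 of 15223 genes were called (0.0657%). With Sfrp2 the block fit called 5 members, among 60.5% of all genes. Same-numbered libraries correlated by -0.04 to 0.02 against pre-MI and by -0.63 to -0.03 between Sfrp2 and vehicle. The numbers were therefore not treated as a pairing. Of the 2 rRNAs relative to mt mRNA, 2 were called at day 1 with a pseudocount of 5 and with a mean of at least 10, and 0 to 1 leaving out each library. Averaging log2 values gives mt-Nd3 the weight of any other mRNA: the rRNA to mRNA difference was then -1.22 at day 1 and -0.71 with Sfrp2, and the mt mRNA to nuclear chain difference 0.77 and -0.22. Against all genes outside the mitochondrial genome, mt mRNA differed by -1.35 at day 1, -3.03 with Sfrp2 and -4.22 with vehicle; the cause was not tested. Without vehicle replicate 3, a setting added after the data were seen, the vehicle difference was -2.78, smaller in size than that with Sfrp2, and Sfrp2 minus vehicle was -0.24, against 1.19 with it.

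Leaving out each library, the rRNA to mRNA difference ranged from -0.53 to -0.41 at day 1, -0.03 to 0.09 with Sfrp2, -1.51 to -0.03 with vehicle and 0.08 to 1.57 for Sfrp2 minus vehicle. The nuclear chain difference ranged from -0.03 to 0.50 at day 1, -0.82 to -0.49 with Sfrp2, -2.02 to -0.78 with vehicle and 0.17 to 1.41 for Sfrp2 minus vehicle. Relative to mt mRNA with Sfrp2, mt-Rnr1 ranged from -0.075 to 0.094 and mt-Rnr2 from -0.033 to 0.12, and with vehicle mt-Rnr2 from -1.70 to 0.028. Leaving out each library, Sfrp2 minus vehicle ranged from -0.083 to 3.20 for mt-Rnr1, -0.20 to 3.63 for mt-Rnr2, -0.12 to 2.44 for mt-Nd1, -0.0041 to 0.72 for mt-Nd2, -0.38 to 3.18 for mt-Co1, -0.16 to 2.19 for mt-Nd3, -0.0044 to 2.15 for mt-Nd4, -0.23 to 1.37 for mt-Nd5, -0.15 to 1.61 for mt-Nd6 and -0.30 to 2.38 for mt-Cytb; the mt-Nd3 difference was -0.027 with edgeR and -0.18 with DESeq2. In the 3 comparisons with pre-MI, no alternative turned the direction of a member. Depth limits the values of vehicle replicate 3, with 3580 mitochondrial mRNA reads, and of mt-Nd3.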
